A study of Mus musculus with 383 samples.

Results

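Among Epcam-negative tumour cells of a mouse skin squamous cell carcinoma model, 85 cells held Sfrp2 at 50 CPM or more, where CPM is the level per 1000000 gene reads. They are called Sfrp2-expressing cells and were 32.3% of the cells that passed quality filters (26.7 to 38.3%, Clopper-Pearson). The others of those cells, under 50 CPM, are called Sfrp2-low cells. The labels list 310 single Epcam-negative cells. Of these, 47 were left out because they had under 100000 gene reads, under 2000 detected genes, over 20% mitochondrial reads or over 50% spike-in reads. The cells were therefore divided by a measured value, Sfrp2 itself, so that its difference between the groups is given by the division and is not a result. The values of all other genes describe the cells that this division separates, and no test was made on them.

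The series examined how Epcam-negative and Epcam-positive tumour cells differ, in 383 wells of 1 plate sequenced by Smart-seq2, which amplifies full-length cDNA of each cell and adds no molecular identifiers. The tumours grew in mice whose alleles included Lgr5CreER, p53fl/fl and Rosa26-YFP+/+, and both groups of cells share the whole genotype. Lgr5-driven Cre acts in a hair follicle lineage, the loss of p53 follows recombination, and the recombined cells carry YFP, by which they were sorted. The labels name no animal, age or tumour for a cell, so cells are not replicates and each group was treated as 1 sample, however many animals or tumours stand behind it. The error given with a ratio or a share is a 95% interval that covers counting error only.

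Sfrp2 encodes a secreted glycoprotein whose cysteine-rich domain resembles the Wnt-binding part of Frizzled receptors, and through it the protein binds Wnt ligands outside the cell and modulates their signalling. Besides the frizzled-related proteins, the Wnt pathway holds ligands, Frizzled and Lrp receptors, other secreted antagonists such as the Dickkopf proteins, and targets of beta-catenin. In skin, Sfrp2 is known as a gene of dermal fibroblasts, which also make the collagens and microfibrils of the dermis. Carcinoma cells that lose epithelial junctions and keratins in an epithelial-mesenchymal transition can switch on many of the same matrix genes.

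Sfrp2 (ENSMUSG00000027996.13) lies on the plus strand of chromosome 3 of the mouse genome build GRCm38, at chr3:83766321-83774316. Its lowest, median and highest levels were 54.6, 369.7 and 3976 CPM over the 85 Sfrp2-expressing cells, against 0, 1.89 and 33.7 CPM over the Sfrp2-low cells. Summed over cells, the level was 724 CPM in Sfrp2-expressing and 4.72 CPM in Sfrp2-low cells, and the highest single cell gave 8.17% of the Sfrp2 reads of its group. The 4 cells just inside the threshold had 54.6, 55.8, 65.6 and 66.9 CPM, and the 4 just outside had 31.5, 32.4, 33.6 and 33.7 CPM, so no cell lay between 33.7 and 54.6 CPM. Of the kept cells, 79 had no Sfrp2 read and 69.96% had 1 or more.

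**Figure D1:**
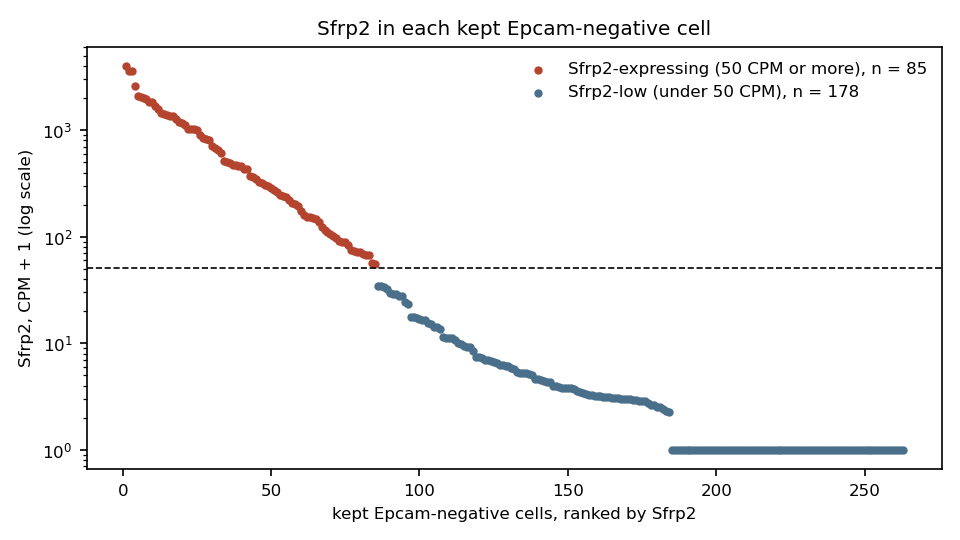
Sfrp2 in each kept Epcam-negative cell, as CPM + 1 on a log scale, with cells ranked along the horizontal axis and the threshold of 50 CPM as a dashed line. Levels fall without a plateau through the 85 Sfrp2-expressing cells to a gap between 54.6 and 33.7 CPM, and 79 Sfrp2-low cells lie at 0.

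The same threshold was met by 1 of 62 kept Epcam-positive cells, with 52.9 CPM, and by none of them after each cell was thinned to 100000 reads (Clopper-Pearson upper limit 5.78%). Here and below a gene is present in a cell if it keeps 5 or more of its thinned reads. A single Sfrp2 read or more was found in 8 of the 62 Epcam-positive cells (12.9%). The share of Sfrp2-expressing cells was 31.4% in plate columns 1 to 12 (44 of 140 cells) and 33.3% in columns 13 to 24 (41 cells). By rows it was 37.2% in rows D to I (42 cells) and 28.7% in rows J to P (43 of 150), with overlapping intervals.

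The promoter of Sfrp2, the gene by which the cells were divided, is shown as the 250 bases before to 50 after the transcription start in RefSeq on GRCm38.p6, chr3:83766071-83766370, plus strand. None of 4 short motifs looked for on both strands was found in these letters: TGANTCA, the AP-1 element, GGAATG, the TEAD element, CTTTGA, the TCF/LEF element through which beta-catenin acts, or TATAAA, the TATA box. The absence of these letters in this window says nothing about the factors that bind them.
Sfrp2: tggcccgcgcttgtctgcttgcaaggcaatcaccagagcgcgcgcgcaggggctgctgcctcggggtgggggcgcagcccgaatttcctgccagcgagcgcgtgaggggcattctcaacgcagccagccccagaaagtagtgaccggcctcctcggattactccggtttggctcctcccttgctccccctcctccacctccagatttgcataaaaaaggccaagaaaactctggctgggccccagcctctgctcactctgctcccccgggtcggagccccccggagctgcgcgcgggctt

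Depth was alike between the groups while RNA measures were not. Sfrp2-expressing cells had a median of 412451 gene reads (lowest 107724, highest 778070) and Sfrp2-low cells 418425 (lowest 104330, highest 900492). A median of 6078 genes were detected per Sfrp2-expressing cell and 6690 per Sfrp2-low cell, and after thinning to 100000 reads it was 4897 in Sfrp2-expressing and 5444 in Sfrp2-low cells. Mitochondrial genes gave a median of 3.52% of gene reads in Sfrp2-expressing and 5.03% in Sfrp2-low cells. Gene reads per spike-in read, a measure of RNA content, had a median of 116.9 in Sfrp2-expressing and 178.8 in Sfrp2-low cells. The part that these differences play in the ratios below was not tested.

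Across the genome, 9248 genes other than Sfrp2 had at least 10 CPM in either group. Ratios are log2 of (summed CPM in Sfrp2-expressing cells + 1) over (summed CPM in Sfrp2-low cells + 1), and are above 0 where Sfrp2-expressing cells had more. Of these genes 456 were 2-fold or more higher in Sfrp2-expressing cells, a background of 4.93%, and 713 were 2-fold or more lower, a background of 7.71%, together 12.6%. The median ratio of all 9248 genes was -0.17, and 37.9% of them were higher by any amount. Scaling moved this split: with TMM factors 620 genes were higher and 503 lower (median ratio -0.02), and with median-of-ratios factors 643 and 503 (-0.01). Per spike-in read 1629 genes were lower and 11.7% of the called genes were higher (-0.51), against 39.01% of the called genes without such factors. The ratios below are to be read against the -0.17 of all genes. Each count of list members past 2-fold is to be read against the 4.93% higher and 7.71% lower of all genes. With spike-in factors the medians of the Wnt receptors (-0.20), Wnt targets (-0.24), transcription factors of epithelial-mesenchymal transition (-0.16), IGF axis (-0.21) and PDGF and FGF genes (-0.06), all described below, were under 0. With TMM factors those of the mesenchymal cytoskeleton (0.10) and contractile genes (0.04) were above 0. Without the top cell of each gene in each group 326 genes were higher and 952 lower (-0.25). A CPM is a share of the gene reads, so a lower level of a gene and more reads of other genes cannot be told apart in it.

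Among the genes that met the rule given next, the highest ratios were those of Mfap2, Col14a1 and Itm2a. The 15 genes described next are the highest of the 699 genes that had 50 CPM or more in Sfrp2-expressing cells, were present in 30% or more of them, were higher in both sets of plate columns and both sets of plate rows, and drew at most 20% of their reads from a single cell. Mfap2, a microfibril-associated glycoprotein, had lowest, median and highest levels of 0, 74.2 and 1829 CPM in Sfrp2-expressing cells, against 0, 0 and 399 CPM in Sfrp2-low cells, and its summed ratio was 3.28 (3.20 to 3.36). Col14a1, a collagen that decorates the surface of collagen fibrils, had 0, 222.9 and 3802 CPM in Sfrp2-expressing cells and 0, 0.555 and 1982 CPM in Sfrp2-low cells (ratio 3.24, 3.19 to 3.29). The ranges of these genes overlapped, and the median Sfrp2-low cell held no Mfap2 read.

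Postn, the matricellular protein periostin, had lowest, median and highest levels of 5.62, 5785 and 42651 CPM in Sfrp2-expressing cells and 2.77, 357 and 18468 CPM in Sfrp2-low cells, a ratio of 2.27 (2.26 to 2.28). It was present in 96.5% of Sfrp2-expressing and 69.7% of Sfrp2-low cells. Most cells of both groups thus held it, and the groups differed in this share and in its level. Mfap5, a second microfibril glycoprotein, had 0, 262.4 and 6532 CPM in Sfrp2-expressing cells and 0, 8.38 and 3755 CPM in Sfrp2-low cells (ratio 2.04). Col12a1, a fibril-associated collagen, was at 1444 CPM in Sfrp2-expressing cells and 351 CPM in Sfrp2-low cells (ratio 2.04), and Dpt, the dermal matrix protein dermatopontin, at 251.04 CPM in Sfrp2-expressing cells and 56.8 CPM in Sfrp2-low cells (2.12). For Dpt 1 cell held 39.5% of the Sfrp2-low reads, and without the top cell of each group the ratio was 2.61.

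The remaining genes of the 15 had varied roles. Itm2a, an integral membrane protein, had lowest, median and highest levels of 0, 111.2 and 3491 CPM in Sfrp2-expressing cells and 0, 0 and 1697 CPM in Sfrp2-low cells (ratio 3.04). Igf1, the insulin-like growth factor, had 0, 47.9 and 2105 CPM in Sfrp2-expressing cells and 0, 0 and 1668 CPM in Sfrp2-low cells (2.41). Itm2a was present in 56.5% of Sfrp2-expressing and 14.6% of Sfrp2-low cells, and Igf1 in 50.6% of Sfrp2-expressing and 13.5% of Sfrp2-low cells. Srpx2, a secreted sushi-repeat protein, was at 167.02 CPM in Sfrp2-expressing cells and 21.3 CPM in Sfrp2-low cells (2.92). Gpnmb, a transmembrane glycoprotein of lysosomes and melanosomes, was at 166.9 CPM in Sfrp2-expressing cells and 25.2 CPM in Sfrp2-low cells (2.68). Ptgis, the synthase of prostacyclin, was at 106.5 CPM in Sfrp2-expressing cells and 18.6 CPM in Sfrp2-low cells (2.46), and Gpx3, the secreted glutathione peroxidase, at 1045 CPM in Sfrp2-expressing cells and 223.02 CPM in Sfrp2-low cells (2.22). Pamr1, a secreted protein with a protease-like domain, was at 165.5 CPM in Sfrp2-expressing cells and 25.1 CPM in Sfrp2-low cells (2.67). Cpxm1, a secreted carboxypeptidase-like protein, was at 147.8 CPM in Sfrp2-expressing cells and 33.1 CPM in Sfrp2-low cells (2.13), and Setbp1, a nuclear protein that binds SET, at 78.5 CPM in Sfrp2-expressing cells and 18.05 CPM in Sfrp2-low cells (2.06). The highest Sfrp2-low cell lay above the median of the Sfrp2-expressing cells for each of the 15. The rule asked for genes that were higher in each set of plate columns and rows, so their shared direction there is given by the choice. All 15 were past 2-fold in each set, but the size differed. Ptgis had ratios of 1.06 for columns 1 to 12, against 5.36 for columns 13 to 24. Dpt had 1.26 in rows D to I and 3.77 in rows J to P.

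Cells differed in how many of these genes they held. An Sfrp2-expressing cell held a median of 9 of the 15 (lowest 0, highest 15) and an Sfrp2-low cell a median of 3 (lowest 0, highest 12). At least 8 of the 15 were present in 57 of 85 Sfrp2-expressing cells and in 11 Sfrp2-low cells (6.18%), and at most 2 in 3 Sfrp2-expressing and 78 Sfrp2-low cells. The 15 were picked for their difference, so these counts show only how the difference is spread over cells. Within the 85 Sfrp2-expressing cells the pairs of the 15 had Spearman correlations from -0.32 to 0.58 with a median of 0.18, and the correlation was -0.08 for Dpt with Gpx3 and 0.05 for Mfap5 with Igf1.

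**Figure D2:**
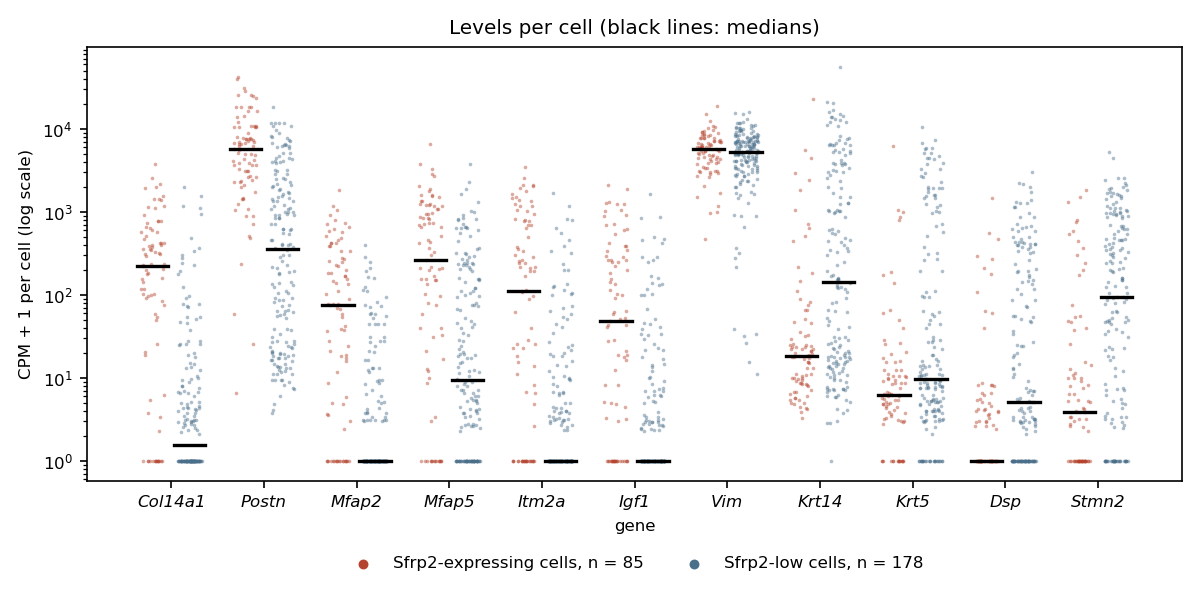
Level of 11 genes in each cell, as CPM + 1 on a log scale, with Sfrp2-expressing cells (n = 85) left of Sfrp2-low cells for each gene and black lines at the medians. Col14a1, Postn, Mfap2, Mfap5, Itm2a and Igf1 have higher medians in Sfrp2-expressing cells, Vim is level, and Krt14, Krt5, Dsp and Stmn2 have lower medians, while the cells of the groups overlap for every gene drawn.

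The shares of cells holding these genes also varied with the amount of Sfrp2. They rose from bin to bin for Col14a1 and Mfap2, but not for every gene. The genes named here are among those picked for their difference across 50 CPM. A difference in share between the bins above and below 50 CPM is therefore in part given by that choice. Col14a1 was present in 12.7% of the 79 cells without an Sfrp2 read, 13.7% of the 73 cells under 10 CPM, 23.1% of the 26 cells from 10 to 50 CPM, 59.1% of the 22 cells from 50 to 150 CPM, 65.5% of the 29 cells from 150 to 500 CPM, and 88.2% of the 34 cells at 500 CPM or more. Mfap2 was present in 7.59, 10.96, 23.1, 31.8, 55.2 and 76.5% of the cells of the same bins. Mfap5 was already present in 61.5% of the cells from 10 to 50 CPM, which are Sfrp2-low, and in 59.1% of those from 50 to 150 CPM, so for Mfap5 the division at 50 CPM cuts through cells that are alike in this share. Stmn2, a stathmin that destabilises microtubules, was present in 53.2, 64.4, 65.4, 40.9, 27.6 and 8.82% of the cells in the same order. Krt14 was lowest at 50 to 150 CPM (18.2%) and reached 32.4% at 500 CPM or more.

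**Figure D3:**
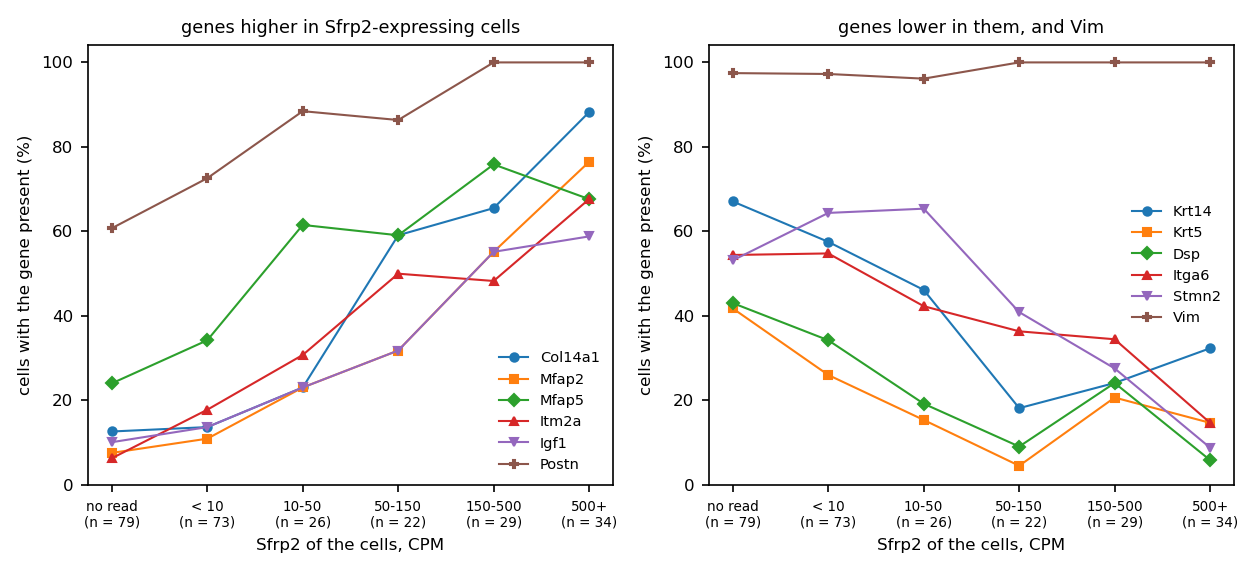
Share of cells (%) in which a gene was present, at 5 or more of 100000 thinned reads, in 6 bins of Sfrp2 level from no read to 500 CPM or more (79, 73, 26, 22, 29 and 34 cells). On the left, each gene has a larger share in the highest bin than in the lowest, with Mfap5 between 59.1 and 75.9% in the bins above 10 CPM. The genes on the left were picked for their difference across 50 CPM, so this is in part given by that choice. The same holds for Krt14, Krt5, Dsp and Stmn2 on the right. On the right, Dsp, Itga6 and Stmn2 are lowest in the highest bin and Vim stays near 100%.

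Over all kept Epcam-negative cells, the genes whose levels followed Sfrp2 most closely by Spearman correlation on thinned reads, among 3719 genes present in 30% or more of the cells, were Col14a1 (rho 0.55), Postn (0.53), Pdgfrl (0.50), Ctla2a (0.49), Col1a2 (0.47), Col3a1 (0.46), Selenop (0.45), Loxl1 (0.44), Fmo2 (0.43) and Lox (0.43). Col1a2 and Col3a1 are fibrillar collagens, Loxl1 and Lox are enzymes that crosslink collagen and elastin, Selenop is a secreted selenoprotein, Pdgfrl resembles a PDGF receptor, Fmo2 is a monooxygenase and Ctla2a an inhibitor of cysteine proteases. Within the 85 Sfrp2-expressing cells alone the correlation with Sfrp2 was 0.41 for Col14a1 and 0.14 for Postn, and it lay between 0.12 and 0.30 for the other 8. The cells share a sample and a plate, and these correlations describe them without a test. Among the Sfrp2-expressing cells, Postn and Col3a1 had a correlation of 0.62 with each other, against 0.15 for Postn with Col14a1.

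Promoters of the 15 highest and the 15 lowest genes were searched for the same motifs. RefSeq promoters were found for 9 of the 15 and for 11 of the 15 lowest genes named below. TGANTCA was in the window of 3 of the 9 (Srpx2, Gpnmb and Igf1) and of 1 of the 11 (Itga3), against 8.97% of all 27025 genes with a promoter. GGAATG was in 1 of the 9 (Mfap2) and 1 of the 11 (Krt14), against 16.6% of all genes. CTTTGA was in 1 of the 9 (Igf1) and 0 of the 11, against 18.2%, and TATAAA in 2 of the 9 (Postn and Dpt) and 0 of the 11, against 15.7%. The 3 windows with TGANTCA and the Postn window with TATAAA follow, all from the plus strand, 5′ to 3′, with the motif letters in capitals (in Igf1 also CTTTGA); they lie at chrX:133908175-133908474, chr6:49036268-49036567, chr10:87860861-87861160 and chr3:54360857-54361156. A match of letters is a description and shows no binding.
Srpx2: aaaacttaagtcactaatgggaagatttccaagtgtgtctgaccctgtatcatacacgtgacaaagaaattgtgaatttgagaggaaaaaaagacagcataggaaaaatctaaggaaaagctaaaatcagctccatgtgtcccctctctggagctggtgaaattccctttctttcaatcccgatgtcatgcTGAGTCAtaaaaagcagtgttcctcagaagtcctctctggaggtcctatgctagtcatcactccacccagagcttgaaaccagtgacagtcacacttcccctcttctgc
Gpnmb: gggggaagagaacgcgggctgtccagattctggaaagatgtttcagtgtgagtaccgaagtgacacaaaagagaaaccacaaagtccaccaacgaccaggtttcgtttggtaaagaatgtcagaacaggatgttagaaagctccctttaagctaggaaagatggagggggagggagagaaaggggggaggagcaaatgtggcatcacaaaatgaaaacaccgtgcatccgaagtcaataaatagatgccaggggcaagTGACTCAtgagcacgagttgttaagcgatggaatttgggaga
Igf1: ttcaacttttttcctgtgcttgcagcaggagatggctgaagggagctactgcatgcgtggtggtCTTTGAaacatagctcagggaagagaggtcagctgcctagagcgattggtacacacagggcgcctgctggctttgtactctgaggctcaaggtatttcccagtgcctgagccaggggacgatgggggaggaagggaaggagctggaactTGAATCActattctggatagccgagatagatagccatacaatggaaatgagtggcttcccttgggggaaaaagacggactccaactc
Postn: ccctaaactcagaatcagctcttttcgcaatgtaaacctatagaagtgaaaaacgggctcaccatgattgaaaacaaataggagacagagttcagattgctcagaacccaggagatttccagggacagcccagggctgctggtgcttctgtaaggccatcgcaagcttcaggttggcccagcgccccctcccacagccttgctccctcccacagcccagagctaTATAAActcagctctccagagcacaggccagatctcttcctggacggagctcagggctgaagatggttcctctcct

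The other frizzled-related genes were present in few cells; 2 of them were measured, Sfrp1 and Sfrp4 (median 1.74, or 0.15 without the top cell of each gene). Sfrp1 was at 54.1 CPM in Sfrp2-expressing cells and 17.5 CPM in Sfrp2-low cells (ratio 1.58, 1.48 to 1.68), yet it was present in 9 of 85 Sfrp2-expressing cells (10.6%, 4.96 to 19.2) and 9.55% of Sfrp2-low cells (5.66 to 14.9). Its ratio was -0.07 in plate columns 13 to 24. Sfrp4 was at 18.3 CPM in Sfrp2-expressing cells and 4.17 CPM in Sfrp2-low cells, but 1 cell held 100% of the reads of the Sfrp2-expressing group, and without the top cells its ratio was -1.29. Frzb was at 4.22 CPM in Sfrp2-expressing cells and 0.743 CPM in Sfrp2-low cells, with 85.6% of the reads of Sfrp2-expressing cells in 1 cell (ratio 1.58, 0.25 without the top cells), and Sfrp5 had no read in either group.

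Wnt ligands, receptors and targets differed in both directions, with list medians between -0.22 and 0.12. Of 4 measured ligands of 13, none was 2-fold or more higher and 1 was 2-fold or more lower, with a list median of -0.22. Wnt5a, a ligand of beta-catenin-independent signalling, had lowest, median and highest levels of 0, 83.2 and 829 CPM in Sfrp2-expressing cells and 0, 85.2 and 1234 CPM in Sfrp2-low cells, which overlapped (ratio 0.22). Wnt10a was at 11.1 CPM in Sfrp2-expressing cells and 40.3 CPM in Sfrp2-low cells (-1.77), Wnt4 at 25.6 against 41.1 CPM (-0.66) and Wnt9a at 19.8 against 15.1 CPM (0.38), each in the same order of groups. Of 11 measured receptors 1 was 2-fold or more higher and 3 were 2-fold or more lower (median 0.12). Fzd7 (14.2 against 37.3 CPM), Fzd6 (5.52 against 14.5 CPM) and Lgr6 (0.231 against 11.5 CPM), the last a marker of skin stem cells, were lower in Sfrp2-expressing cells, and Fzd4 (12.7 against 5.02 CPM) was higher, by 1.19 with all cells and 0.70 without the top cells.

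Of 12 measured antagonists of Wnt and BMP, 2 were 2-fold or more higher and 1 was 2-fold or more lower (median 0.39). Fstl1, a secreted follistatin-like protein, had 95.5, 3061 and 8990.3 CPM in Sfrp2-expressing cells and 0, 1334 and 7223 CPM in Sfrp2-low cells as lowest, median and highest level (ratio 0.95). Chrd, the BMP antagonist chordin, was at 43.5 CPM in Sfrp2-expressing cells and 20.3 CPM in Sfrp2-low cells (1.06). Wif1, which binds Wnt ligands, was at 2.19 CPM in Sfrp2-expressing cells and 17.4 CPM in Sfrp2-low cells (-2.52), with 73.7% of its Sfrp2-expressing reads in 1 cell. Of 10 measured target genes 2 were 2-fold or more higher and 2 were 2-fold or more lower (median 0.11). Nkd2 (28.9 against 6.27 CPM) and Apcdd1 (34.2 against 13.2 CPM), both feedback inhibitors of the pathway, were higher, and Tcf7 (3.90 against 14.02 CPM) and Ccnd1, cyclin D1 (166.4 against 382 CPM), were lower in Sfrp2-expressing cells.

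Collagen genes were higher as a group. Of 7 measured fibrillar collagens 6 were 2-fold or more higher and none was 2-fold or more lower, with a median ratio of 1.19, against 4.93% of all genes higher. Col3a1, the type III chain, had lowest, median and highest levels of 58.99, 4817 and 50428 CPM in Sfrp2-expressing cells and 3.35, 1155 and 24319.5 CPM in Sfrp2-low cells (ratio 1.83, 1.82 to 1.84). Col1a2 and Col1a1, the chains of type I collagen, had medians of 6136 and 2516 CPM over Sfrp2-expressing cells and 1774 and 981 CPM over Sfrp2-low cells (ratios 1.46 and 1.19). Col3a1 was present in 100% of Sfrp2-expressing and 87.1% of Sfrp2-low cells, and the ranges of the 3 chains overlapped. Of 12 other collagens 6 were 2-fold or more higher and 1 was 2-fold or more lower (median 1.07). Col6a3, of the microfibrillar type VI collagen, was at 595 CPM in Sfrp2-expressing cells and 204.6 CPM in Sfrp2-low cells (1.54), and the exception was Col17a1, the hemidesmosomal collagen of keratinocytes, at 19.6 CPM in Sfrp2-expressing cells and 170.3 CPM in Sfrp2-low cells (-3.06).

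The enzymes that modify collagen were nearer to level. Of 14 measured, 1 was 2-fold or more higher and none was 2-fold or more lower (median 0.37). Loxl1 was at 494 CPM in Sfrp2-expressing cells and 194.3 CPM in Sfrp2-low cells (1.34), Plod1, a lysyl hydroxylase, at 293.4 against 146.3 CPM (0.999), P4ha3, a prolyl hydroxylase, at 38.8 against 20.3 CPM (0.91) and Lox at 1061 against 586 CPM (0.86) in the same order. Of 14 elastic fibre and microfibril genes 6 were 2-fold or more higher and none was 2-fold or more lower (median 0.92). Eln, elastin, had lowest, median and highest levels of 0, 83.5 and 17004 CPM in Sfrp2-expressing cells and 0, 3.93 and 12069 CPM in Sfrp2-low cells (1.999), and was present in 57.6% of Sfrp2-expressing and 20.8% of Sfrp2-low cells.

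Small leucine-rich proteoglycans bind collagen fibrils and set their spacing. All 8 measured members were higher by some amount (Fmod lower with spike-in factors), and 2 of the 8 2-fold or more (median 0.85). Aspn, asporin, had lowest, median and highest levels of 0, 527 and 6629 CPM in Sfrp2-expressing cells and 0, 22.03 and 5186 CPM in Sfrp2-low cells (1.78). Bgn, biglycan, was at 4474 CPM in Sfrp2-expressing cells and 2396 CPM in Sfrp2-low cells (0.90), and Dcn, decorin, at 5199.8 CPM in Sfrp2-expressing cells and 2867 CPM in Sfrp2-low cells (0.86). Lum, lumican, was at 168.8 CPM in Sfrp2-expressing cells and 51.6 CPM in Sfrp2-low cells (1.69, or 2.32 without the top cells). Of 14 matricellular genes 6 were 2-fold or more higher and 1 was 2-fold or more lower (median 0.86). Besides Postn, Tnc, tenascin-C, was at 629 CPM in Sfrp2-expressing cells and 267.3 CPM in Sfrp2-low cells (1.23), Ccn3 at 33.1 against 3.34 CPM (2.97) in few cells, and Sparc at 12806 against 6993 CPM (0.87). The single gene that was lower was Spp1, osteopontin, with 0, 16.2 and 32999 CPM in Sfrp2-expressing cells and 0, 99.5 and 36425 CPM in Sfrp2-low cells (-1.44). Of 7 hyaluronan and large proteoglycan genes 1 was 2-fold or more higher and 1 was 2-fold or more lower (median -0.18). Hspg2, perlecan, was at 160.9 CPM in Sfrp2-expressing cells and 77.4 CPM in Sfrp2-low cells (1.05), Has2, a hyaluronan synthase, at 73.9 against 44.01 CPM (0.73) and Acan, aggrecan, at 10.1 against 30.6 CPM (-1.50, or -2.58 without the top cells).

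Matrix proteases and their inhibitors were mostly higher. Of 18 measured, 8 were 2-fold or more higher, against 4.93% of all genes, and none was 2-fold or more lower, against 7.71% (median 0.77). Mmp2, gelatinase A, had lowest, median and highest levels of 37.4, 2217 and 11753 CPM in Sfrp2-expressing cells and 0, 779.9 and 10115 CPM in Sfrp2-low cells, and was present in 97.6% of Sfrp2-expressing and 91.01% of Sfrp2-low cells (ratio 1.125). The stromelysin and collagenase genes were carried by fewer cells: Mmp10 was at 796 CPM in Sfrp2-expressing cells and 125.6 CPM in Sfrp2-low cells (2.65), present in 28.2% of Sfrp2-expressing and 15.7% of Sfrp2-low cells, and Mmp13 at 3382 CPM in Sfrp2-expressing cells and 974 CPM in Sfrp2-low cells (1.79), present in 30.6% of Sfrp2-expressing and 24.2% of Sfrp2-low cells. Of Mmp3 reads in Sfrp2-low cells 67.5% came from 1 cell, and its ratio was 1.48 with all cells and 2.69 without the top cells. Mmp19 was at 56.5 CPM in Sfrp2-expressing cells and 11.5 CPM in Sfrp2-low cells (2.20) and Fap, a fibroblast activation marker, at 35.5 CPM in Sfrp2-expressing cells and 6.78 CPM in Sfrp2-low cells (2.23), present in 12.9% of Sfrp2-expressing and 3.37% of Sfrp2-low cells.

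**Figure D4:**
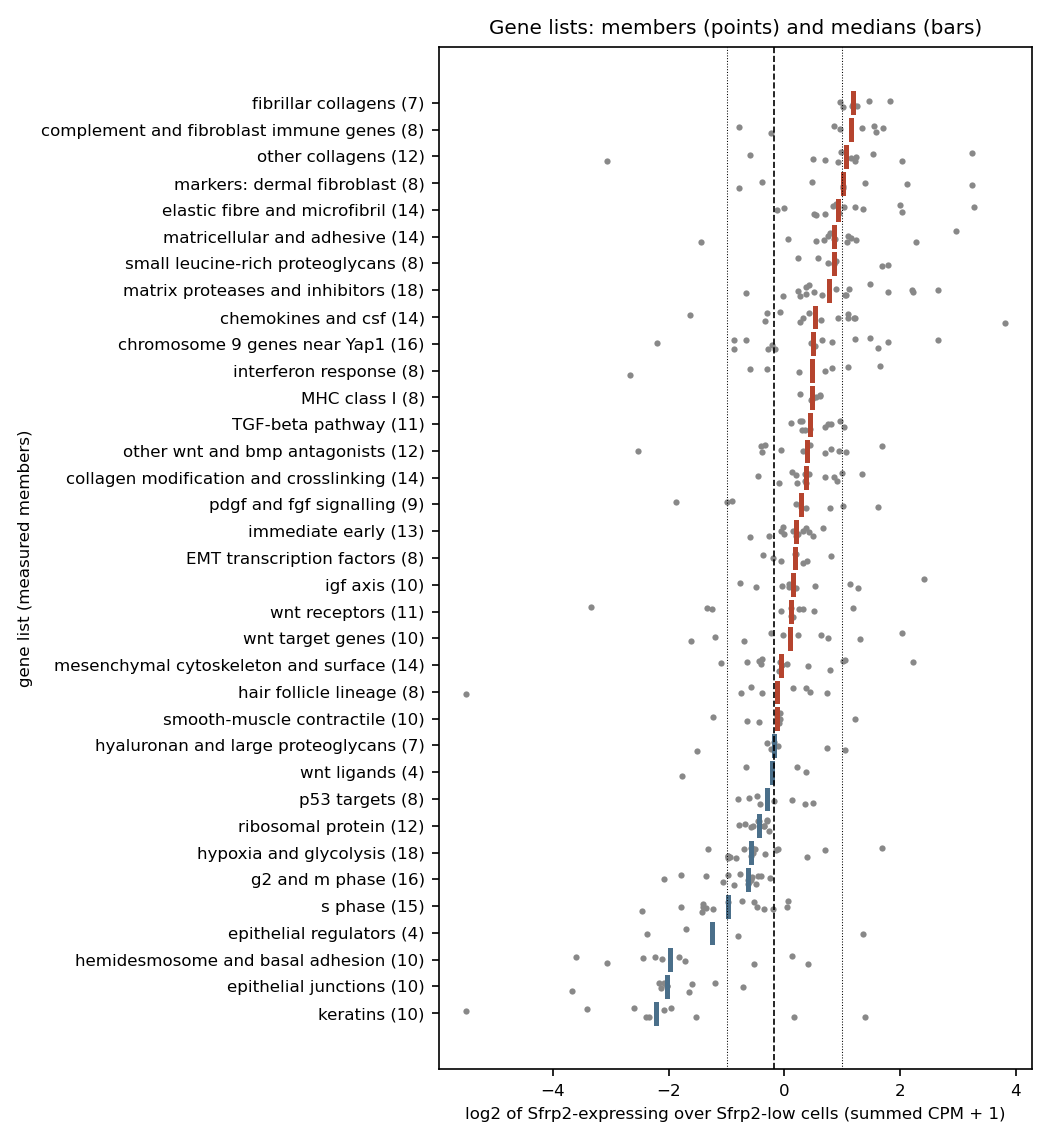
Log2 ratio of Sfrp2-expressing over Sfrp2-low cells (summed CPM + 1) for the measured members of each gene list with 4 or more of them, as points, with bars at list medians, red above and blue at or below the median of all genes (dashed line at -0.17), and dotted lines at 2-fold. Of the lists drawn, fibrillar collagens, complement and fibroblast immune genes, other collagens and dermal fibroblast markers have the highest medians (1.19, 1.14, 1.07 and 1.01). Keratins, epithelial junctions and hemidesmosome genes have the lowest (-2.21, -2.03 and -1.97).

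Keratins and junction genes were lower in Sfrp2-expressing cells. Of 10 measured keratins 1 was 2-fold or more higher and 8 were 2-fold or more lower (median -2.21), and of 10 junction genes none was 2-fold or more higher and 9 were 2-fold or more lower (median -2.03), against 7.71% of all genes lower. Krt14, a keratin of basal keratinocytes, had lowest, median and highest levels of 2.28, 17.4 and 23245 CPM in Sfrp2-expressing cells and 0, 140.3 and 56264 CPM in Sfrp2-low cells. It was present in 22 of 85 Sfrp2-expressing cells (25.9%, 16.98 to 36.5) and 60.1% of Sfrp2-low cells (52.5 to 67.4). Its summed ratio was -2.39 (-2.41 to -2.37), and because 1 Sfrp2-expressing cell held 50.5% of the group's reads it was -3.16 without the top cells. The size differed over the plate: Krt14 had a ratio of -4.75 for the cells of columns 1 to 12, against -0.93, under 2-fold, for those of columns 13 to 24. In the same order Krt5 had -5.14 and -1.16, the keratin list a median of -4.30 and -1.15, and the junction list -3.35 and -1.30. Krt5, the partner of Krt14, had 0, 5.21 and 6306 CPM in Sfrp2-expressing cells and 0, 8.71 and 10586 CPM in Sfrp2-low cells (ratio -2.61, or -3.63 without the top cells), and was present in 12 of 85 Sfrp2-expressing cells (14.1%, 7.51 to 23.4) and 31.5% of Sfrp2-low cells (24.7 to 38.8).

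The other keratins were carried by few cells. Krt15 was at 0.318 CPM in Sfrp2-expressing cells and 58.6 CPM in Sfrp2-low cells (-5.50, or -4.52 without the top cells), and Krt17 at 29.1 CPM in Sfrp2-expressing cells and 321 CPM in Sfrp2-low cells (-3.42). Krt6b had a ratio of 1.40, with 89.3% of its Sfrp2-expressing reads in 1 cell, and of -0.27 without the top cells, while Krt6a had -1.53 and -2.96. Reads of Krt6b and its near copy Krt6a may have been split between them in counting. Among junction genes, Dsp, the desmosomal plaque protein desmoplakin, had 0, 0 and 1492 CPM in Sfrp2-expressing cells and 0, 4.20 and 3022 CPM in Sfrp2-low cells as lowest, median and highest level (-2.16, or -2.75 without the top cells; by plate columns, -4.75 for 1 to 12 and -1.32 for 13 to 24). Dsg2, a desmosomal cadherin, was at 3.06 CPM in Sfrp2-expressing cells and 16.7 CPM in Sfrp2-low cells (-2.12, or -2.83 without the top cells), and Pkp3, a desmosomal plaque protein, at 4.53 CPM in Sfrp2-expressing cells and 22.4 CPM in Sfrp2-low cells (-2.08). Epcam itself, by which the cells were sorted, was at 1.65 CPM in Sfrp2-expressing cells and 32.8 CPM in Sfrp2-low cells, present in 1 of 85 Sfrp2-expressing cells (1.18%, 0.0298 to 6.38) and 6.18% of Sfrp2-low cells (3.12 to 10.8).

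Epithelial transcription regulators were measured for 4 of 13 genes, 1 was 2-fold or more higher and 2 were 2-fold or more lower (median -1.26). Trp63, the p63 factor of stratified epithelia, was at 11.1 CPM in Sfrp2-expressing cells and 61.6 CPM in Sfrp2-low cells (-2.38, or -3.21 without the top cells), and Klf5 at 79.4 CPM in Sfrp2-expressing cells and 139.95 CPM in Sfrp2-low cells (-0.81). Ovol1 had a ratio of 1.36, with 94.2% of its Sfrp2-expressing reads in 1 cell, and of 0.32 without the top cells. Of 10 genes of hemidesmosomes and basal adhesion none was 2-fold or more higher and 7 were 2-fold or more lower (median -1.97). Lama3 and Lamb3, laminin chains of the basement membrane, had ratios of -3.60 and -2.45, with Lamb3 at 3.47 CPM in Sfrp2-expressing cells and 23.4 CPM in Sfrp2-low cells. Of the laminin-binding integrins, Itga3 was at 17.6 CPM in Sfrp2-expressing cells and 79.8 CPM in Sfrp2-low cells (-2.12), Itgb4 at 27.1 against 98.6 CPM (-1.83) and Itga6 at 44.7 against 150.2 CPM (-1.72).

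The 15 genes with the lowest ratios, chosen by the mirror image of the rule above from 1569 genes, were Wfdc2, Dynap, Krt5, Krt14, Ano1, Dsp, Itga3, Pthlh, Pkp1, Cldn1, Sfn, Stmn2, Anxa8, Itgb4 and Tfrc. Wfdc2, a secreted whey acidic protein-like inhibitor of epithelia, had lowest, median and highest levels of 0, 0 and 262.995 CPM in Sfrp2-expressing cells and 0, 4.84 and 2176 CPM in Sfrp2-low cells (-3.01). Pkp1, a desmosomal plakophilin, was present in 8.24% of Sfrp2-expressing and 43.8% of Sfrp2-low cells, and Cldn1, a tight junction protein, in 11.8% of Sfrp2-expressing and 30.3% of Sfrp2-low cells. Sfn, the 14-3-3 sigma protein of keratinocytes, was at 38.6 CPM in Sfrp2-expressing cells and 156.8 CPM in Sfrp2-low cells (-1.99, or -2.90 without the top cells). Not all were junction genes. Stmn2 had 0, 2.85 and 1825 CPM in Sfrp2-expressing cells and 0, 93.1 and 5318 CPM in Sfrp2-low cells (-1.98). Ano1, a chloride channel, was at 15.5 CPM in Sfrp2-expressing cells and 73.7 CPM in Sfrp2-low cells (-2.17). Pthlh, a parathyroid hormone-like factor, was at 25.3 against 108.8 CPM (-2.06), Anxa8, an annexin, at 149.4 against 563 CPM (-1.91). Tfrc, the transferrin receptor, was at 30.9 against 108.5 CPM (-1.78) and Dynap, a dynactin-associated membrane protein, at 19.7 against 154.6 CPM (-2.91) in the same order. The lowest cell held no read in either group for each of the 15, apart from Krt14 in Sfrp2-expressing cells, and the ranges overlapped. In plate columns 13 to 24 Krt14, Itgb4 (-0.93), Sfn (-0.80) and Anxa8 (-0.78) were under 2-fold, and in columns 1 to 12 they were at -4.75, -2.96, -3.52 and -3.19.

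Since Krt14 was present in more Sfrp2-low cells, the comparison was repeated after seeing the data in cells with Krt14 under 50 CPM, 64 Sfrp2-expressing and 75 Sfrp2-low. In these, the keratin list, which holds the gene used to choose the cells, had a median of -0.34 in place of -2.21. Epithelial junctions had -0.18 in place of -2.03 and hemidesmosome genes -0.72 in place of -1.97. Of the keratins 4 were 2-fold or more lower, in place of 8. So were 1 junction gene in place of 9 and 4 hemidesmosome genes in place of 7. Krt5 had a ratio of 0.19 there, and Krt14, held low by the choice, 0.01. The matrix lists had positive medians that were lower than in all kept cells: fibrillar collagens 0.60, other collagens 0.55, elastic fibre genes 0.63, matricellular genes 0.54, proteases 0.44 and small leucine-rich proteoglycans 0.80, against -0.14 for all genes. Fewer members of most of these lists were past 2-fold higher there than in all kept cells. Fibrillar collagens had 1 in place of 6 and proteases 4 in place of 8. The other collagens, elastic fibre and matricellular lists each had 3 in place of 6. Small leucine-rich proteoglycans had more, 3 in place of 2. Col14a1 had a ratio of 2.34, Mfap2 of 2.42, Postn of 1.80 and Stmn2 of -1.71 in these cells, each past 2-fold. Col14a1 and Krt14 were present together in 15 of 85 Sfrp2-expressing cells (17.6%, 10.2 to 27.4) and 3.37% of Sfrp2-low cells (1.25 to 7.19).

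**Figure D5:**
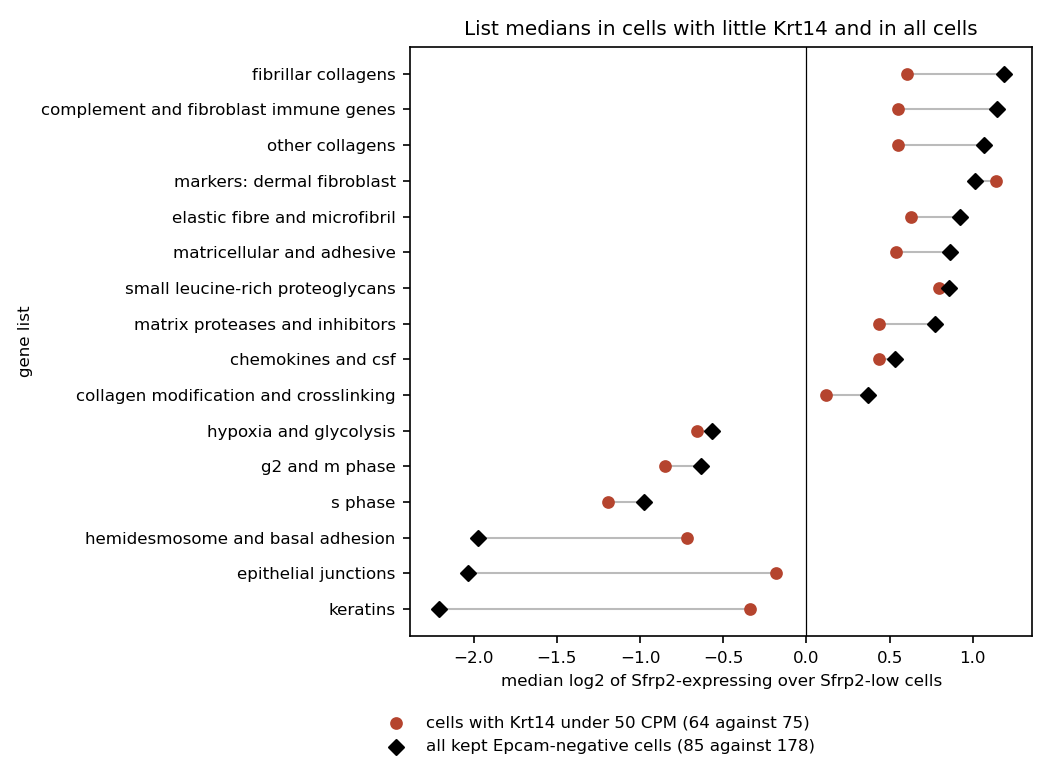
Median log2 ratio of 16 gene lists in cells with Krt14 under 50 CPM (circles, 64 Sfrp2-expressing against 75 Sfrp2-low cells) and in all kept Epcam-negative cells (diamonds). Keratins, epithelial junctions and hemidesmosome genes have medians of -2.21, -2.03 and -1.97 in all kept cells and of -0.34, -0.18 and -0.72 in the Krt14-low cells, while the S phase and G2 and M phase medians are lower in the Krt14-low cells.

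Genes of the mesenchymal state differed less than matrix genes. None of 8 measured transcription factors of epithelial-mesenchymal transition was past 2-fold (median 0.19). Snai2 was at 23.3 CPM in Sfrp2-expressing cells and 12.9 CPM in Sfrp2-low cells (0.81), Zeb1 at 58.2 CPM in Sfrp2-expressing cells and 44.1 CPM in Sfrp2-low cells (0.39), Twist2 at 10.02 against 7.86 CPM (0.32) and Prrx2 at 51.6 against 66.6 CPM (-0.36). Vim, vimentin, had lowest, median and highest levels of 475, 5699.6 and 18984 CPM in Sfrp2-expressing cells and 10.3, 5350.1 and 16138 CPM in Sfrp2-low cells, with a ratio of 0.05. Of 14 cytoskeleton and surface genes 3 were 2-fold or more higher and 1 was 2-fold or more lower (median -0.06). Pdgfra, a receptor of platelet-derived growth factor on fibroblasts, was at 399.5 CPM in Sfrp2-expressing cells and 197.1 CPM in Sfrp2-low cells (1.02), Thy1 at 25.2 against 11.6 CPM (1.05), and S100a4, a calcium-binding protein, at 1041 CPM in Sfrp2-expressing cells and 2222 CPM in Sfrp2-low cells (-1.09). Of 10 contractile genes 1 was 2-fold or more higher and 1 was 2-fold or more lower (median -0.12). Mylk, the myosin light chain kinase, was at 19.3 against 7.75 CPM (1.22) and Actg2, an enteric actin, at 24.95 against 60.3 CPM (-1.24).

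Of 3 surface markers of transition states 1 was 2-fold or more higher and none was 2-fold or more lower (median 0.89, but 1.49 in plate rows D to I and -0.10 in rows J to P). Vcam1, an adhesion molecule, was at 257.5 CPM in Sfrp2-expressing cells and 91.5 CPM in Sfrp2-low cells (ratio 1.48) and present in 35 of 85 Sfrp2-expressing cells (41.2%, 30.6 to 52.4) and 30.3% of Sfrp2-low cells (23.7 to 37.7). Itgb3, integrin beta 3, was at 17.9 CPM in Sfrp2-expressing cells and 9.24 CPM in Sfrp2-low cells (0.89), and Itgav, integrin alpha V, at 142.6 CPM in Sfrp2-expressing cells and 168.2 CPM in Sfrp2-low cells (-0.24). None of the 3 was present in 19 of 85 Sfrp2-expressing cells (22.4%, 14.03 to 32.7) and 24.2% of Sfrp2-low cells (18.1 to 31.1), which are shares with overlapping intervals. Acta2, smooth muscle actin, was at 1587 CPM in Sfrp2-expressing cells and 2478 CPM in Sfrp2-low cells (-0.64), and Aqp5, a water channel, at 61.1 CPM in Sfrp2-expressing cells and 145.2 CPM in Sfrp2-low cells (-1.24). Trp53, the floxed gene, was at 21.9 CPM in Sfrp2-expressing cells and 16.7 CPM in Sfrp2-low cells (0.38), a count over the whole gene that does not separate its floxed from its retained exons.

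Genes of the TGF-beta pathway were higher by small amounts. All 11 measured TGF-beta pathway genes were higher by some amount although Tgfbr1, Smad7, Skil and Inhba were lower with spike-in factors, and 1 of them was past 2-fold (median 0.45), where 37.9% of all genes were higher by some amount. Tgfbr2, the type II receptor, had 0, 164.1 and 1370.5 CPM in Sfrp2-expressing cells and 0, 74.4 and 1637 CPM in Sfrp2-low cells as lowest, median and highest level (0.96). The ligands Tgfb2 and Tgfb3 had ratios of 0.80 and 0.75. Of 9 PDGF and FGF genes 2 were 2-fold or more higher and 1 was 2-fold or more lower (median 0.29). Pdgfd was at 12.1 CPM in Sfrp2-expressing cells and 3.23 CPM in Sfrp2-low cells (1.63). Fgfr2 was at 13.5 against 27.8 CPM (-0.99, or -1.16 without the top cells) and Pdgfb at 2.83 against 13.1 CPM (-1.88, or -3.05 without the top cells). Of 10 genes of the IGF axis 3 were 2-fold or more higher and none was 2-fold or more lower (median 0.14). Igf1, Igfbp3, an IGF-binding protein (282.9 against 116.1 CPM, 1.28) and Igf2r, the receptor that clears Igf2 (87.97 against 39.3 CPM, 1.14), were past 2-fold. H19, the non-coding RNA beside Igf2, was at 291.5 CPM in Sfrp2-expressing cells and 495 CPM in Sfrp2-low cells (-0.76).

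Of 14 chemokine and cytokine genes 5 were 2-fold or more higher and 1 was 2-fold or more lower (median 0.53). Cxcl12, a chemokine of stromal cells, had lowest, median and highest levels of 5.62, 1665 and 7333 CPM in Sfrp2-expressing cells and 0, 383 and 8099 CPM in Sfrp2-low cells (1.20). Cxcl9, an interferon-induced chemokine, was at 200.7 CPM in Sfrp2-expressing cells and 13.3 CPM in Sfrp2-low cells (3.81), but present in only 17.6% of Sfrp2-expressing and 3.93% of Sfrp2-low cells. Ccl7, which attracts monocytes, was at 1218 CPM in Sfrp2-expressing cells and 524 CPM in Sfrp2-low cells (1.22). Il33, an alarmin, was at 17.04 against 55.1 CPM in the same order (-1.64, or -0.13 without the top cells, since 1 Sfrp2-low cell held 74.8% of its group's reads). Of 8 complement and related genes 4 were 2-fold or more higher and none was 2-fold or more lower (median 1.14). By any amount 6 of these 8 were higher and 2 lower. C1ra, a protease of the first complement component, was at 172.5 CPM in Sfrp2-expressing cells and 56.9 CPM in Sfrp2-low cells (1.58). C3 was at 88.3 against 29.4 CPM (1.55) and Il1rl1, the receptor of Il33, at 163.9 against 64.4 CPM (1.33).

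S phase genes were lower as a group, while the G2 and M phase genes differed between the sets of plate columns and few glycolysis genes were past 2-fold. Of 15 S phase genes none was 2-fold or more higher and 7 were 2-fold or more lower (median -0.98, -1.19 in Krt14-low cells, -0.32 in cells below the median of gene reads), against 7.71% of all genes lower. Mcm3, Mcm7, Mcm6 and Mcm4, subunits of the replicative helicase, had ratios of -2.46, -1.78, -1.43 and -1.41, with Mcm7 at 11.4 CPM in Sfrp2-expressing cells and 41.6 CPM in Sfrp2-low cells, present in 9.41% of Sfrp2-expressing and 24.7% of Sfrp2-low cells. Of 16 G2 and M phase genes none was 2-fold or more higher and 4 were 2-fold or more lower (median -0.63, or -1.13 without the top cell of each gene). This median was 0.08, on the other side of 0, for plate columns 1 to 12, against -4.07 for columns 13 to 24, and -3.60 in cells below and -0.14 in cells at or above the median of gene reads. It was -2.28 with Sfrp2 at 100 CPM, -2.34 without cells from 10 to 100 CPM, -1.60 in cells without Mki67 and Top2a and -0.19 without cells with Pdgfra and Dpt. Mki67, the Ki-67 antigen, was at 9.99 CPM in Sfrp2-expressing cells and 37.1 CPM in Sfrp2-low cells (-1.79). Bub1b, a spindle checkpoint kinase, was at 2.92 against 15.7 CPM (-2.09, or -2.71 without the top cells), Bub1 at 6.70 against 18.7 CPM (-1.35) and Cenpf at 16.3 against 34.97 CPM (-1.06, or -2.41). Mki67 or Top2a was present in 11 of 85 Sfrp2-expressing cells (12.9%, 6.64 to 21.98) and 19.1% of Sfrp2-low cells (13.6 to 25.7), with overlapping intervals. Of 18 hypoxia and glycolysis genes 1 was 2-fold or more higher and 1 was 2-fold or more lower (median -0.57), shares near the 4.93% and 7.71% of all genes, and 15 were lower by some amount. Pfkp, a phosphofructokinase, was at 42.1 CPM in Sfrp2-expressing cells and 106.4 CPM in Sfrp2-low cells (-1.32), Eno1, an enolase, at 124.7 against 247.2 CPM (-0.98, or -1.03 without the top cells) and Ero1l, an oxidoreductase of the endoplasmic reticulum, at 95.5 against 188.8 CPM (-0.98). Of the 3 that were higher, Adm, adrenomedullin, was past 2-fold, at 323 CPM in Sfrp2-expressing cells and 99.8 CPM in Sfrp2-low cells (1.69).

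The label of the cells was checked against markers of other cell types. Dermal fibroblast markers were measured for 8 of 12 genes, 5 were 2-fold or more higher and none was 2-fold or more lower (median 1.01). By any amount 6 of the 8 were higher and 2 lower. The summed level of the markers per cell ran over 101.2 to 19127 CPM (median 2279) in Sfrp2-expressing cells. In Sfrp2-low cells it ran over 5.22 to 86394 CPM (median 720.2). Pdgfra was present in 65 of 85 Sfrp2-expressing cells (76.5%, 66.03 to 84.996) and 50.0000% of Sfrp2-low cells (42.4 to 57.6), and Dpt in 42 of 85 Sfrp2-expressing cells (49.4%, 38.4 to 60.5) and 11.8% of Sfrp2-low cells (7.45 to 17.5), so the markers were not confined to either group. Dpp4, Pi16, Clec3b and Entpd1, other markers of dermal fibroblasts, were below 10 CPM in both groups. When cells with Pdgfra and Dpt both at 50 CPM or more were left out, also after seeing the data, 54 Sfrp2-expressing cells remained, 24.8% of the cells left, 490 genes were 2-fold or more higher and 696 lower, and the small leucine-rich proteoglycans had a median of 0.01. In the same cells the medians were 0.95 for fibrillar collagens, 0.92 for other collagens and 0.85 for elastic fibre genes. They were 0.96 for complement and related genes and -1.78 for keratins. The cells were sorted by YFP, and the purity of that sort was not tested here. The part of dermal fibroblast RNA in the results was not tested.

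Markers of other cells were rare. Pericyte markers were measured for 3 of 9 genes (median -0.80). Rgs5 was at 0.116 CPM in Sfrp2-expressing cells and 19.5 CPM in Sfrp2-low cells, Des, Kcnj8, Abcc9 and Higd1b had no read in Sfrp2-expressing cells, and the summed level ran over 0 to 556 CPM (median 13.1) in Sfrp2-expressing and 0 to 8770.2 CPM (median 19.3) in Sfrp2-low cells. Immune markers were measured for 2 of 12, S100a8 (30.3 against 41.7 CPM) and Cd74 (11.9 against 0.206 CPM, ratio 3.42, or 0.19 without the top cells), and 98.3% of the Cd74 reads of Sfrp2-expressing cells came from 1 cell. Ptprc, the pan-leukocyte CD45, had no read in Sfrp2-expressing cells, and Adgre1 none in either group. The summed level ran over 0 to 1639.7 CPM (median 2.24) in Sfrp2-expressing and 0 to 2218 CPM (median 0) in Sfrp2-low cells. None of the 8 endothelial, 9 melanocyte and Schwann, 6 adipocyte, 6 skeletal muscle and 5 erythroid markers reached 10 CPM in either group, with medians over cells of 0. Single cells held more. The highest summed level of adipocyte markers was 1104.7 CPM in Sfrp2-expressing and 1097.7 CPM in Sfrp2-low cells. In the same order it was 230.1 and 500.9 CPM for skeletal muscle, 100.6 and 199.6 CPM for endothelial, and 89.1 and 169.5 CPM for melanocyte and Schwann markers. For erythroid markers it was 9.94 and 14.5 CPM. Tek and Emcn, of endothelium, Sox10, Adipoq and Myod1 had no read in either group. The part of RNA from these cell types in the results was not tested.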

How the data were processed

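The deposited table holds raw counts of reads per gene and spike-in for each well, made by the authors with cutadapt 1.13, STAR 2.5.2b, HTSeq 0.6.0 and the GRCm38 genome, per the submitters' processing notes. Which annotation release was counted, and whether strand was used, is not given in the sources used here. Overlapping and antisense genes and near copies such as Krt6a and Krt6b are therefore uncertain. Of 49585 gene IDs, 49326 were matched to GENCODE symbols and 259 were not. The table also holds 92 spike-ins. Well labels gave the sort, doublets were gated out at the sort per the labels, and no doublet caller was run. No 2 wells held identical counts.

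The filter kept 263 Epcam-negative cells, 85 of them Sfrp2-expressing and 178 Sfrp2-low, and 62 Epcam-positive cells. Reads of a gene were summed over each group and divided by the group's gene reads. Ratios used a pseudocount of 1 CPM and genes with 10 CPM or more in either group, and 2-fold or more was the size rule. Each group is 1 sample, so no test was made and no p-value is given; intervals are 95% exact (Poisson for levels, binomial for shares, conditional binomial for ratios) and cover counting error only. The ratio step was tried on simulated counts with genes changed by known folds, and only median ratios over sets of genes were checked. Every gene was drawn with the same spread over cells, so genes with most reads in 1 cell were not covered. Presence was read after thinning each cell to 100000 reads. The members and gene lists were chosen with earlier results of these data known. Named genes are the 2 to 4 members of each list with the largest ratios and those against its median, the 15 highest and lowest by the rule in the text, the 10 most like Sfrp2 and a set of fixed names; Mmp2, Mmp3, Itga6 and Sparc were named after their values were seen. Alternatives changed the threshold, filter, scaling, pseudocount, minimum level and cells used. Python 3.11.15, numpy 2.4.6, pandas 2.3.3, scipy 1.17.1, matplotlib 3.10.9, R 4.3.3 and edgeR 4.0.16 (for TMM factors) were used. Some genes and 1 allele of the mice are not reported here.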

Additional observations from a re-analysis of the deposited data

Results flagged for a closer look

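Sfrp2 reads were also present in wells outside the comparison. The 47 Epcam-negative wells left out by the filter summed to 119.8 CPM of Sfrp2 (107.2 to 133.5), and 12 of them were at 50 CPM or more. The well sorted with 50 cells held 11 Sfrp2 reads, 71.01 CPM (35.5 to 127.1). The 2 wells sorted with no cell held 4018 and 99241 gene reads, against 154897 in the well sorted with 50 cells. Both held 0 Sfrp2 reads, with exact Poisson upper limits of 918.1 and 37.2 CPM in the same order. The deeper of these wells lay just under the least gene reads set for a kept cell. The source of its reads was not tested.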

How the results depend on the processing

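No paired analysis was possible because the labels give the cells no replicate numbers and the results come from no test. Of all genes tested, 4.93% were 2-fold or more higher and 7.71% lower. These shares became 7.79 and 17.2% in plate columns 13 to 24, 7.50 and 11.9% in rows D to I, 7.65 and 11.6% in rows J to P, and 9.44 and 14.4% in cells below the median of gene reads. They were 2.39 and 18.1% with spike-in scaling, 2.29 and 2.55% with a pseudocount of 10 CPM, 3.93 and 4.18% of 4071 genes with a minimum of 50 CPM, and 2.41 and 3.49% of 49584 genes with no minimum. The lower share was 11.7% with Sfrp2 at 100 CPM and 13.1% without cells from 10 to 100 CPM. Sfrp2-expressing cells were 46.04% of cells with Krt14 under 50 CPM and 24.8% of cells left without those with Pdgfra and Dpt, both chosen after seeing the data. Of the named genes past 2-fold, 84.1% had the same direction in all 25 settings and 38.9% were past 2-fold in all of them. The share of 84.1% is in part given by the choice of genes. The highest and lowest genes by the rule in the text had to keep their direction in the plate column and row sets, which are among the settings. Settings that change only the minimum CPM leave every ratio and list median as it is. The named genes that did not keep their direction turned as follows, in log2 ratio. In plate columns 1 to 12 these were Krt6b (-1.19) and Sfrp4 (-2.50), and in columns 13 to 24 Fzd6 (0.059), Krt6a (0.049), Mmp12 (0.70) and Sfrp1 (-0.068). In rows D to I they were Il33 (0.83), Krt6b (-0.079) and Sfrp4 (-2.02), and in rows J to P Cd74 (-0.41) and Pdgfd (-0.56). In cells below the median of gene reads they were Cd74 (-0.058), Ifit1 (0.27), Il33 (4.27) and Krt6a (0.033), and in cells at or above it Krt6b (-0.996), Ovol1 (-0.088) and Sfrp4 (-2.83). Il33 (0.28) turned without cells from 10 to 100 CPM, and Krt6b (-1.16) and Ovol1 (-1.64) in cells without Mki67 and Top2a. Krt6b (-0.27) and Sfrp4 (-1.29) turned without the top cells. In Krt14-low cells Krt14 (0.013, held low by the choice), Krt5 (0.19), Mmp12 (0.16), Pdgfb (1.37), Pkp3 (0.86) and Wif1 (1.37) turned, without cells with Pdgfra and Dpt Cd74 (-0.29) and Lum (-0.44), and in cells with at least 100 gene reads per spike-in read Oasl2 (-0.0057). The cause of these turns was not tested. Of 8 list medians past 2-fold, 8 kept their direction and none was past 2-fold in all settings, and of 29 under 2-fold 14 turned in at least 1 setting. Without its top cell in each group, 21 named genes moved by more than 1.5 times. Sampling limits genes with few reads, such as Rgs5 with 4 reads in Sfrp2-expressing cells.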

Other observations

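Antigen presentation genes were all higher in Sfrp2-expressing cells by less than 2-fold, although H2-D1 was lower with spike-in factors. The 8 measured genes of MHC class I had a median ratio of 0.47, with H2-K1, a class I heavy chain, at 276.3 CPM in Sfrp2-expressing cells and 178.97 CPM in Sfrp2-low cells (0.62) and Psmb9, an immunoproteasome subunit, at 17.5 CPM in Sfrp2-expressing cells and 11.1 CPM in Sfrp2-low cells (0.62). Of 8 interferon response genes 2 were 2-fold or more higher and 1 was 2-fold or more lower (median 0.48): Irf7, a transcription factor, was at 29.5 CPM in Sfrp2-expressing cells and 8.68 CPM in Sfrp2-low cells (1.66) and Oasl2 at 33.4 CPM in Sfrp2-expressing cells and 15.1 CPM in Sfrp2-low cells (1.10), while Ifit1 was at 3.52 CPM in Sfrp2-expressing cells and 27.9 CPM in Sfrp2-low cells (-2.67), with 65.1% of its Sfrp2-low reads in 1 cell. All 12 ribosomal protein genes were lower by less than 2-fold (median -0.43), with Rps2 at 55.3 CPM in Sfrp2-expressing cells and 89.4 CPM in Sfrp2-low cells (-0.68) and Rpl8 at 809.9 CPM in Sfrp2-expressing cells and 1208 CPM in Sfrp2-low cells (-0.58); such genes have many near copies, and their counts are uncertain.

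Of 16 measured genes of chromosome 9 near Yap1, a gene of Hippo signalling, 5 were 2-fold or more higher and 1 was 2-fold or more lower (median 0.49). Besides Mmp10 and Mmp13, Mmp12, a macrophage elastase, was at 12.8 CPM in Sfrp2-expressing cells and 62.4 CPM in Sfrp2-low cells (-2.20). Of 8 hair follicle genes none was 2-fold or more higher and 1 was 2-fold or more lower (median -0.12, or 0.04 with TMM factors), with Sox9, a factor of follicle stem cells, at 177.997 CPM in Sfrp2-expressing cells and 300.3 CPM in Sfrp2-low cells (-0.75) and Tbx1 at 25.4 CPM in Sfrp2-expressing cells and 14.8 CPM in Sfrp2-low cells (0.74). None of 13 immediate early genes was past 2-fold (median 0.20, or -0.15 with spike-in factors): Btg2 was at 1084 CPM in Sfrp2-expressing cells and 685 CPM in Sfrp2-low cells (0.66) and Atf3, a stress-induced factor, at 413 CPM in Sfrp2-expressing cells and 621 CPM in Sfrp2-low cells (-0.59). None of 8 measured p53 targets was past 2-fold (median -0.30): Phlda3 was at 101.4 CPM in Sfrp2-expressing cells and 178.3 CPM in Sfrp2-low cells (-0.81) and Bax, an apoptosis gene, at 35.4 CPM in Sfrp2-expressing cells and 54.6 CPM in Sfrp2-low cells (-0.61). Xist, the RNA of the inactive X chromosome, was present in 78.8% of Sfrp2-expressing and 80.9% of Sfrp2-low cells, and Y-linked genes had 2 reads in Sfrp2-expressing and 0 in Sfrp2-low cells.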
